A study of Homo sapiens with 9 samples.

Results

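The protein disulfide isomerases and the oxidases that recharge them form the disulfide-making machinery of the endoplasmic reticulum (ER), and 10 of their genes were followed here in Ramos cells exposed to an inhibitor of the kinase GSK-3. The genes were chosen by name, as the isomerase family and the ERO1 oxidases, and each was found in the count table by its Ensembl identifier. All 10 of the 10 had a row among 60234 gene identifiers, and all 10 passed the filter on low counts, which left 15847 genes to test. The set held 8 isomerases (P4HB, PDIA3, PDIA4, PDIA5, PDIA6, TXNDC5, ERP29 and ERP44) and 2 oxidases (ERO1A and ERO1B).

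Ramos is a human B cell line from an EBV-negative Burkitt lymphoma. Total RNA was sequenced from 3 groups of 3 biological replicates: untreated cells (0 h), cells kept for 3 h in 3 µM CHIR99021, and cells kept for 6 h in 3 µM CHIR99021. CHIR99021 is a small molecule that blocks both forms of GSK-3. The series concerns MYC stabilization and apoptosis in B cell lymphoma. Untreated cultures of matching age were not part of the 9 libraries, so the drug and the time it was given for cannot be told apart. The samples are bulk RNA from 1 cell line, in which fewer cells of a state and less RNA per cell cannot be told apart.

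Proteins that enter the ER acquire disulfide bonds there, and antibodies depend on them to join their chains. An isomerase hands a disulfide to its client through a pair of cysteines in a thioredoxin-like domain, or reshuffles bonds that were made wrongly. It is then left reduced, and an ERO1 oxidase makes it ready for another round by passing the electrons to oxygen, with hydrogen peroxide as a by-product. Many of these genes are known to be raised by the unfolded protein response (UPR), the program that enlarges folding capacity when unfolded protein builds up in the ER.

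Depth was even, at 46359911 to 52880876 reads assigned to genes per library. Levels are given as CPM, the count of a gene per megaread of its TMM-scaled library, and 1 unit on the log2 scale stands for 2-fold. At these depths a count of 0 would allow up to 0.0516 to 0.0692 CPM, an amount that covers counting error only and lies far below the lowest member. Markers matched the label: 7 of 7 B cell markers were at or above 1 CPM in every library, with sums of 6900 to 7390 CPM at 0 h, 7240 to 7890 at 3 h and 7450 to 8400 at 6 h. IGHM, the heavy chain of IgM, held most of that sum, at 4440 to 5730 CPM over the libraries. Summed markers of myeloid cells, of T or NK cells, and of epithelium or fibroblasts each stayed at or below 0.185 CPM in every library, and CD3D, CD2, EPCAM, KRT19 and COL1A2 had no read. Of 4 plasma cell markers, IRF4 and MZB1 were above 1 CPM in every library while SDC1 and PRDM1 were not. Single markers moved with treatment: at 6 h against 0 h the log2 fold change was 0.95 for MS4A1, 0.56 for CD79A, -0.68 for PAX5 and -0.68 for CD22, and 0.28 for MZB1, -0.78 for IRF4 and -1.27 for PRDM1, each at an edgeR adjusted p under 0.05. The part of these shifts in the results below was not tested. Replicates 1 and 2 of 0 h were the most alike pair (chi-square over its degrees of freedom 1.70), and replicate 3 of 0 h stood apart from both (29.9 and 26.7). ERO1A, TXNDC5 and ERO1B had their lowest 0 h values in replicate 3.

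The 250 bases before the start of each gene were read for elements known to drive ER stress genes, and 5 of these promoters are printed: those of PDIA4, PDIA6 and P4HB, which rose at both times, of ERP29, which was lower at both, and of ERO1B, which with PDIA6 held the full ER stress element. The sequences are those of RefSeq on GRCh38.p14, whose table had windows for 9 of the 10 genes, 12 windows in all. PDIA3 had no window there and was left out of this reading. Each is written 5′ to 3′ on the strand of its gene, and capitals mark, on either strand, the CCAAT box, the second part of the ER stress element (its letters are CCACG) and the E-box, which reads CACGTG. PDIA4 is shown by its CpG-rich window, chr7:149028491-149028740 on the minus strand, and P4HB by chr17:81860536-81860785 on the minus strand. PDIA6 is shown by its CpG-rich window, chr2:10812786-10813035 on the minus strand, ERO1B by chr1:236281959-236282208 on the minus strand, and ERP29 by chr12:112013176-112013425 on the plus strand.
PDIA4: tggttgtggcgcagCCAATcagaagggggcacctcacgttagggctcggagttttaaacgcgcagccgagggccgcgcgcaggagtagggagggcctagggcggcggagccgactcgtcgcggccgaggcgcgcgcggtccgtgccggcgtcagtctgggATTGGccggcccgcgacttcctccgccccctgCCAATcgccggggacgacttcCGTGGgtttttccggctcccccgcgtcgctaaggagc
P4HB: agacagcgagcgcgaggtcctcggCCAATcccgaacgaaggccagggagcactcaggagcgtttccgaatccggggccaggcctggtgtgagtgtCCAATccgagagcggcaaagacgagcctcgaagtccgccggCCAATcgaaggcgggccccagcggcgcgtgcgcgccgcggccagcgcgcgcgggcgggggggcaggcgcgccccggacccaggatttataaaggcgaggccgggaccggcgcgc
PDIA6: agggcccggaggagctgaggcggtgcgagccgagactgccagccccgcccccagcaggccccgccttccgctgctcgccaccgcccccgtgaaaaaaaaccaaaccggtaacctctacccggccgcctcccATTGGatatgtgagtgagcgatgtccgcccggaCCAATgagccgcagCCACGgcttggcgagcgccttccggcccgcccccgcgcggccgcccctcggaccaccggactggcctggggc
ERO1B: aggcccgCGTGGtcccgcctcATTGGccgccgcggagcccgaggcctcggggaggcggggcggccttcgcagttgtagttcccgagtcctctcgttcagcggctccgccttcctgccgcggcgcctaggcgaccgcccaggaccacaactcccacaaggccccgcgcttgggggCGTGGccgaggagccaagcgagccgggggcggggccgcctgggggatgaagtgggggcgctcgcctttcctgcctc
ERP29: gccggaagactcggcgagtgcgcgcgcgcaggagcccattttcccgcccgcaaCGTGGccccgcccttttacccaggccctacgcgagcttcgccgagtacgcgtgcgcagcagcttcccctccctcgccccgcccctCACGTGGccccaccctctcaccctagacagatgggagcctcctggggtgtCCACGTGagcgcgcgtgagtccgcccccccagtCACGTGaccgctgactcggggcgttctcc

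The full ER stress response element, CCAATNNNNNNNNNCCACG on either strand, was present in 26 of 35116 promoter windows of this length (0.074%). Of the 12 windows of the set, 2 held it, that of PDIA6 at -86 to -68 from the start and that of ERO1B at -243 to -225 on the opposite strand. PDIA4, the gene of the set with the steepest rise, had no exact copy in either of its windows, and its CpG-rich window held CCAAT on one strand or the other at 3 places and CCACG on the opposite strand at -37 to -33. P4HB held CCAAT at 3 places and no CCACG. For comparison, CCAAT alone occurred in 32% of all windows and CCACG alone in 33.5%, and the element contains both.

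The UPR element TGACGTGG was found in 1 window, the downstream one of TXNDC5 at -92 to -85, and in 0.612% of all windows. The second form of the ER stress element, ATTGGNCCACG, was in none of the 12 (0.0513% of all), and neither were the ATF4 element TGATGNAA (3.14%), the cyclic AMP element TGACGTCA (1.65%) or the heat shock element GAANNTTCNNGAA (0.441%). The E-box CACGTG, to which MYC with MAX binds among other factors, was in the windows of ERP29, 3 times, and of PDIA5, and in 6.34% of all windows. The hypoxia core ACGTG, part of the E-box and of the UPR element, was in 6 of the 12 windows, among them that of ERO1A, and in 18.5% of all. A match is only a match of letters, and the absence of one says nothing about binding of a factor.

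The 10 genes fell into a group of 5 that climbed at both times and a group of 5 that stayed close to the untreated level. P4HB, PDIA3, PDIA4, PDIA5 and PDIA6 were higher at 3 h than at 0 h and higher again at 6 h, by 1.97-fold to 2.73-fold at 3 h and 2.61-fold to 5.07-fold at 6 h. With TMM factors TXNDC5, ERP29, ERP44, ERO1A and ERO1B lay between 1.26-fold lower and 1.28-fold higher in every comparison with 0 h. Over 18 alternative fits their log2 fold changes against 0 h ran from -0.54 (ERO1B at 3 h) to 0.39 (ERP44 at 6 h). Across the 3 times, 9 of the 10 genes differed at an adjusted p under 0.05 in edgeR's F test, beside 77.7% of all genes tested, so a pass was common in these data. ERO1A was the gene that did not pass (adjusted p = 0.324).

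**Figure D1:**
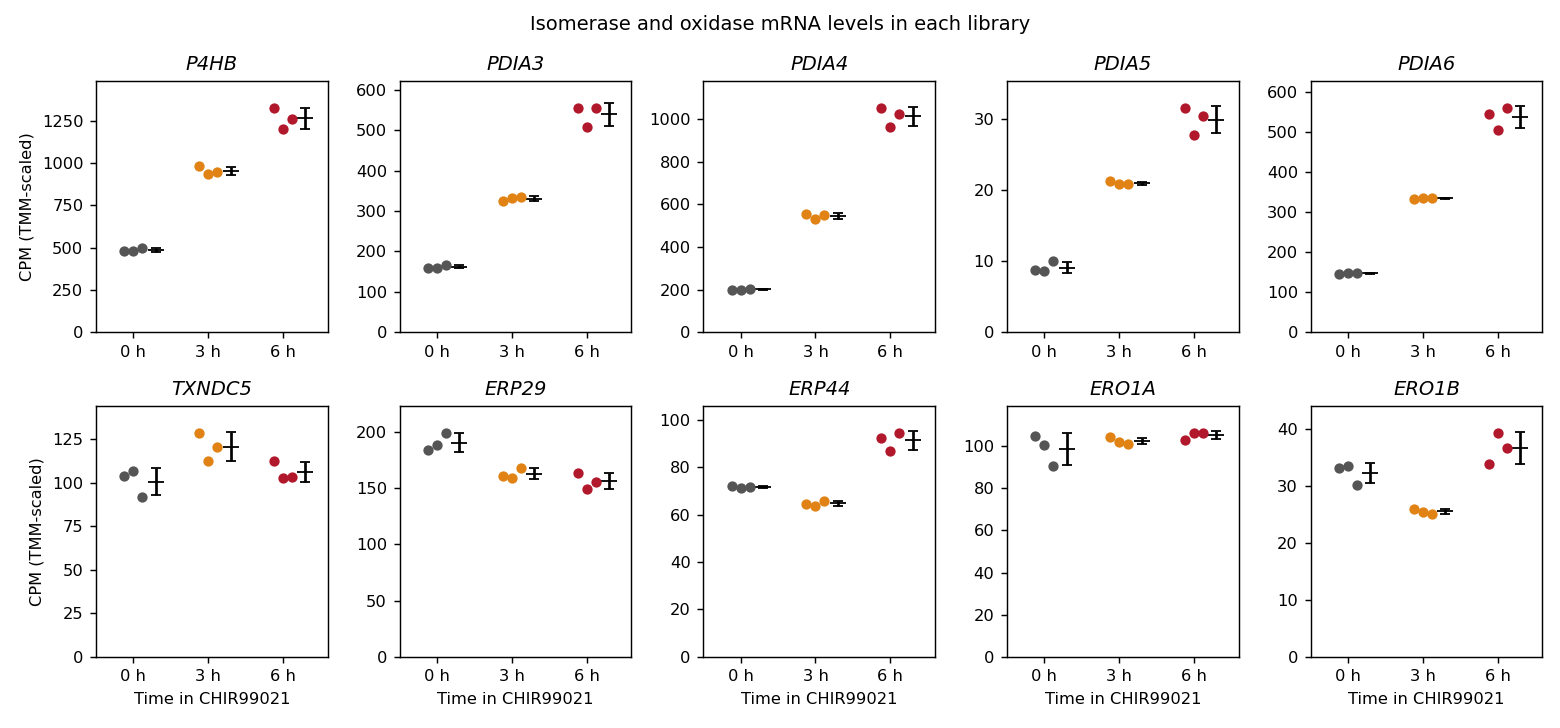
Level of each gene in each of the 9 libraries, in TMM-scaled CPM on axes that start at 0, by time in CHIR99021 (points), with the mean and SD of 3 libraries as a bar beside them. In the first 5 panels the 3 times do not overlap and climb, PDIA4 reaching 965.8 to 1053 CPM at 6 h, while ERO1A stays between 90.5 and 106.5 CPM throughout.

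Against 0 h, 6 of the 10 genes were higher and 3 lower at 3 h. At that time 66.3% of all genes tested passed, with 32.8% of all genes tested higher and 33.5% lower. At 6 h, 7 were higher and 1 lower, where 70.8% of all genes passed, 35.7% higher and 35% lower. Between 3 h and 6 h, 7 rose and 1 fell, where 43.4% of all genes passed, 21.5% higher and 21.9% lower. The median log2 fold change of the 10 genes was 0.62 at 3 h and 0.87 at 6 h against 0 h, and 0.50 at 6 h against 3 h, while the median of all genes was -0.01, 0.02 and 0.01. At least 2-fold rises were found for 4 of the 10 at 3 h, where 4.95% of all genes met that mark, for 5 of the 10 at 6 h, where 6.44% did, and for none (0) between 3 h and 6 h, where 1.67% did. The libraries did not overlap for 9 of the 10 at 3 h against 0 h (70.2% of all genes), 8 at 6 h against 0 h (71.7%) and 7 at 6 h against 3 h (55.2%). Scaling changed the balance over all genes: 49.5% of calls at 3 h and 50.5% at 6 h were higher with TMM factors, 36% and 39.2% with upper-quartile factors, and 31.8% and 32.8% with library size alone. The last choice moved the median of all genes to -0.22 at both times, so directions here are relative to the TMM median.

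**Figure D2:**
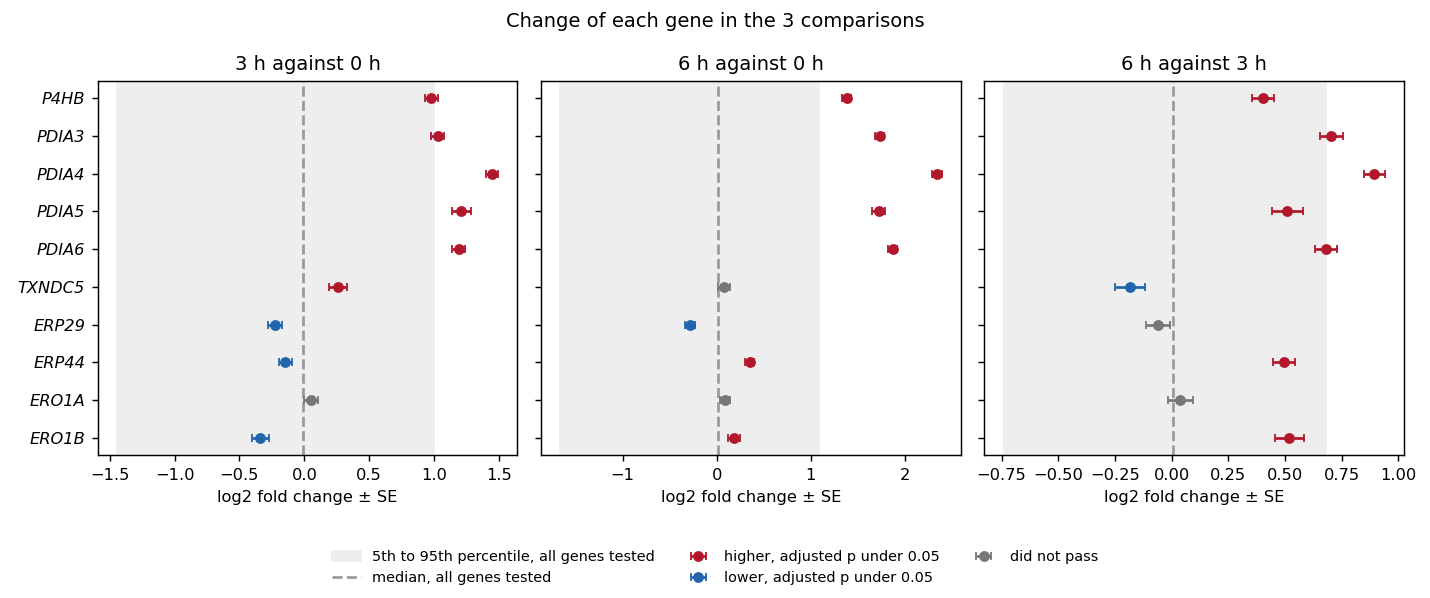
Log2 fold change of each gene with its standard error in the 3 comparisons, coloured by the call at an adjusted p under 0.05, over a grey band from the 5th to the 95th percentile of all genes tested and a dashed line at their median. At 6 h against 0 h, PDIA4, PDIA6, PDIA3, PDIA5 and P4HB lie right of the band, with values of 2.34, 1.87, 1.73, 1.72 and 1.38, and the other genes lie inside it.

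The steepest climb of the set was that of PDIA4 (ENSG00000155660), the isomerase ERp72. It had 198, 200.1 and 203 CPM in the 0 h libraries, 554, 532 and 552 CPM at 3 h, and 1053, 965.8 and 1026 CPM at 6 h. Every library of a later time lay above every library of an earlier one. At 3 h the log2 fold change was 1.45 (SE 0.0478, edgeR adjusted p = 3.26e-11), a 2.73-fold rise. At 6 h it was 2.34 (SE 0.0491, edgeR adjusted p = 3.88e-13), a 5.07-fold rise, and 0.41% of all genes tested had a higher value. The rise went on after 3 h, with a log2 fold change of 0.89 between 3 h and 6 h (SE 0.047, edgeR adjusted p = 1.5e-08).

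P4HB (ENSG00000185624) encodes the founding isomerase of the family, which also serves as a subunit of collagen prolyl 4-hydroxylase. It had 477, 479 and 497.5 CPM at 0 h, 980.2, 935 and 949 CPM at 3 h, and 1326, 1203 and 1262 CPM at 6 h. The gain was larger before 3 h than after it: the log2 fold change was 0.98 at 3 h against 0 h (SE 0.049, edgeR adjusted p = 8.63e-10) and 0.40 at 6 h against 3 h (SE 0.0486, edgeR adjusted p = 1.95e-05). Over the 6 h it came to 1.38 (SE 0.0494, edgeR adjusted p = 2.88e-11), or 2.61-fold, the smallest rise of the 5 climbing genes.

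PDIA6 (ENSG00000143870) encodes P5, an isomerase that works alongside the chaperone BiP. Its level was 146, 148 and 147 CPM at 0 h, 334, 335 and 337 CPM at 3 h, and 546, 507 and 561 CPM at 6 h. The replicates at 0 h and at 3 h differed by no more than a few CPM, and the 3 times did not overlap. The log2 fold change was 1.19 at 3 h (SE 0.048, edgeR adjusted p = 1.32e-10) and 1.87 at 6 h (SE 0.0488, edgeR adjusted p = 2.15e-12), or 2.28-fold and 3.66-fold. In the annotation 25.2% of its exon bases are shared with the opposite-strand gene ATP6V1C2. The strand setting of the counting is not given, and the effect on its count was not tested. ATP6V1C2 itself had 222 to 261 reads at 0 h, 493 to 502 at 3 h and 666 to 756 at 6 h, against 23149 to 25656 for PDIA6 at 6 h.

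PDIA3 (ENSG00000167004) encodes ERp57, the isomerase that calnexin and calreticulin present to glycoproteins and that takes part in loading MHC class I molecules. Its counts came to 159.6, 159.6 and 167 CPM at 0 h, 324, 332 and 335 CPM at 3 h, and 555, 507 and 555 CPM at 6 h. Again no library of one time reached into another. Its rise at 3 h was 2.04-fold (1.03 on the log2 scale with SE 0.0498, edgeR adjusted p = 6.05e-10), and at 6 h it was 3.32-fold (1.73 with SE 0.0505, edgeR adjusted p = 5.42e-12).

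Reads were also counted for a near-identical copy of PDIA3. PDIA3P1, a processed pseudogene on another chromosome, aligned over 1514 bases to PDIA3 transcripts with 98% of them identical. It held 104, 101 and 104 CPM at 0 h, 216, 230.5 and 220.5 CPM at 3 h, and 366, 335 and 383 CPM at 6 h. Its share of the summed reads of both was steady, at 38.4% to 39.5% at 0 h, 39.7% to 41.0% at 3 h and 39.7% to 40.8% at 6 h. Reads of the gene and of the copy cannot be told apart with certainty. Adding the copy's counts to those of PDIA3, an alternative chosen after seeing the data, gave log2 fold changes of 1.06 at 3 h and 1.76 at 6 h. In addition, 14.8% of the exon bases of PDIA3 lie within exons of the neighbouring gene ELL3 on the opposite strand. ELL3 had 4773 to 5149 reads at 0 h and 2029 to 2057 at 6 h, against 8922 to 9279 and 23152 to 26092 for PDIA3. The effect of this overlap on the count was not tested.

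**Figure D3:**
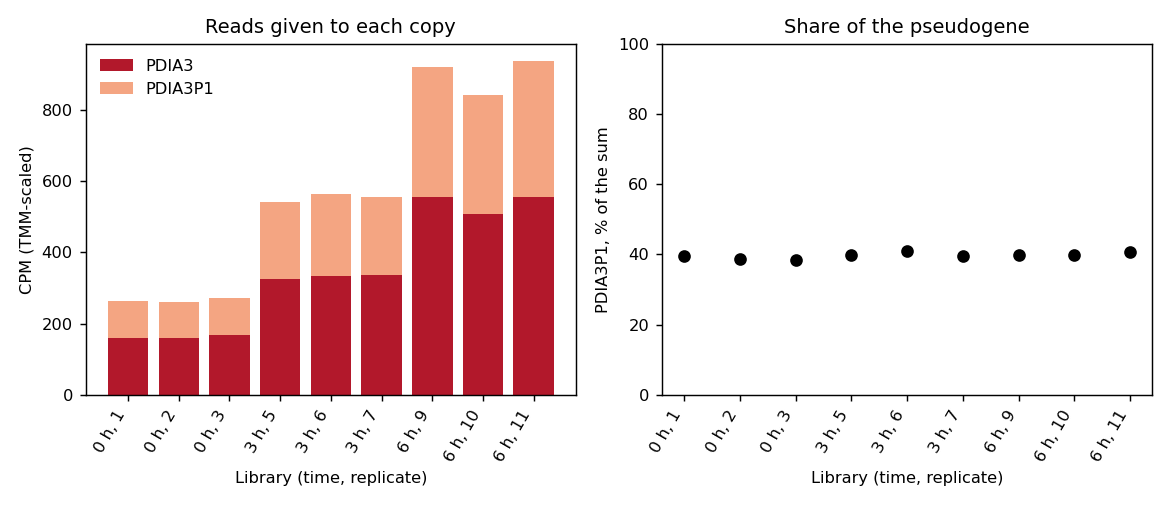
Left, TMM-scaled CPM counted for PDIA3 (dark) and for its processed pseudogene PDIA3P1 (light) in each of the 9 libraries, stacked from 0. Right, the share of PDIA3P1 in that sum in percent, which lies between 38.4% and 41.0% in all libraries while the sum itself is lowest in a 0 h library (261 CPM) and highest in a 6 h library (937.5 CPM).

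PDIA5 (ENSG00000065485), the isomerase PDIR, was the least abundant of the climbing genes. It had 8.71, 8.56 and 9.99 CPM at 0 h, 21.3, 20.9 and 20.9 CPM at 3 h, and 31.6, 27.8 and 30.4 CPM at 6 h. The spread stayed small against the distance between times even at this level. The log2 fold change was 1.21 at 3 h (SE 0.0723, edgeR adjusted p = 4.50e-09) and 1.72 at 6 h (SE 0.072, edgeR adjusted p = 1.11e-10), the first a 2.32-fold rise. Of its exon bases, 12.2% are shared with SEC22A, which lies on the same strand. SEC22A had 417 to 439 reads at 0 h and 342 to 403 at 6 h, against 487 to 539 and 1272 to 1487 for PDIA5. The effect of this overlap was not tested.

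TXNDC5 (ENSG00000239264), the isomerase ERp46, had a small and passing rise. Its values were 104, 107 and 91.7 CPM at 0 h, 129, 112 and 121 CPM at 3 h, and 113, 103 and 103 CPM at 6 h. The 3 h libraries lay above the 0 h ones, and the 6 h libraries overlapped both. At 3 h the log2 fold change was 0.26 (SE 0.0679, edgeR adjusted p = 0.00382), which did not pass with upper-quartile factors (0.11, adjusted p = 0.142) or with library size alone (0.06, adjusted p = 0.422). It fell between 3 h and 6 h (log2 fold change -0.18, SE 0.068, edgeR adjusted p = 0.0424), although the libraries of both times overlapped and leaving out replicate 5 or 7 of 3 h or replicate 10 or 11 of 6 h ended that call (adjusted p = 0.178, 0.0987, 0.136 and 0.133). At 6 h against 0 h the log2 fold change was 0.08, with a 95% interval of -0.07 to 0.22 (edgeR adjusted p = 0.328). The readthrough gene BLOC1S5-TXNDC5 covers 60.6% of the exon bases of TXNDC5 and was given at most 2 reads in any library, and the effect of that overlap on the count was not tested.

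ERP29 (ENSG00000089248) encodes a protein that lacks the cysteine pair of an active isomerase and acts as an escort of secreted proteins. It was the gene that was lower at both times. It had 183, 188 and 199 CPM at 0 h, 161, 159 and 168 CPM at 3 h, and 164, 149 and 155 CPM at 6 h. All treated libraries were below all untreated ones, and the treated times overlapped each other. It fell by 0.23 on the log2 scale at 3 h (SE 0.0518, edgeR adjusted p = 0.00147) and by 0.29 at 6 h (SE 0.0518, edgeR adjusted p = 0.000199), that is 1.17-fold and 1.22-fold. Neither passed against a minimum fold of 1.2 (adjusted p = 0.67 and 0.22). Over 18 alternatives the log2 fold change ran from -0.43 to -0.20 at 3 h and from -0.52 to -0.25 at 6 h. The difference between 6 h and 3 h was -0.06, with a 95% interval of -0.17 to 0.05 (edgeR adjusted p = 0.381).

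ERP44 (ENSG00000023318) encodes the isomerase of the early secretory pathway that holds back the ERO1 oxidases and unassembled IgM from secretion. It had 71.9, 71.0 and 71.8 CPM at 0 h, 64.5, 63.8 and 65.8 CPM at 3 h, and 92.3, 86.9 and 94.6 CPM at 6 h. The lowest values were those of 3 h and the highest those of 6 h, with no overlap among the 3 times. The log2 fold change was -0.15 at 3 h (SE 0.0478, edgeR adjusted p = 0.0151), 0.35 at 6 h against 0 h (SE 0.0476, edgeR adjusted p = 1.43e-05) and 0.50 at 6 h against 3 h (SE 0.0478, edgeR adjusted p = 2.97e-06). Over 18 alternatives the value at 3 h ran from -0.35 to -0.13 and that at 6 h against 0 h from 0.11 to 0.39. The small fall at 3 h did not pass without a filter on low counts (adjusted p = 0.0803) or against a minimum fold of 1.2 (adjusted p = 1).

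Of the oxidases, ERO1A (ENSG00000197930), the form that most tissues make and that hypoxia is known to raise, did not pass in any comparison. It had 105, 101 and 90.5 CPM at 0 h, 104, 102 and 101 CPM at 3 h, and 103, 106 and 106.5 CPM at 6 h. The libraries of the 3 times overlapped. The log2 fold change was 0.05 at 3 h, with a 95% interval of -0.07 to 0.17 (edgeR adjusted p = 0.427), and 0.09 at 6 h, with an interval of -0.03 to 0.21 (edgeR adjusted p = 0.16). Those intervals leave out a rise of the size seen in the 5 climbing isomerases. With library size alone the values were -0.15 and -0.14 and passed (adjusted p = 0.0255 and 0.0297), a direction opposite to that under TMM scaling.

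ERO1B (ENSG00000086619), the form known from secretory tissues, dipped at 3 h and then rose, as ERP44 did. It had 33.3, 33.5 and 30.3 CPM at 0 h, 26.1, 25.5 and 25.2 CPM at 3 h, and 33.9, 39.4 and 36.8 CPM at 6 h. The 3 h libraries were the lowest, and the 6 h libraries lay above those of 0 h, the nearest being 33.9 at 6 h and 33.5 at 0 h. It fell by 0.34 on the log2 scale at 3 h (SE 0.0634, edgeR adjusted p = 0.000316) and rose by 0.52 between 3 h and 6 h (SE 0.0636, edgeR adjusted p = 2.30e-05). Over 18 alternatives the log2 fold change at 3 h ran from -0.54 to -0.32. The log2 fold change of 0.18 at 6 h against 0 h (SE 0.0627, edgeR adjusted p = 0.0185) passed in only 11 of 18 alternatives. It was lost without replicate 3 of 0 h (0.13, adjusted p = 0.0548) and without replicate 10 of 6 h (0.13, adjusted p = 0.0791). It was also lost with upper-quartile factors (adjusted p = 0.629), a filter of 1 CPM (adjusted p = 0.0601), the compared groups alone (adjusted p = 0.08) and a minimum fold of 1.2 (adjusted p = 0.839), and its sign turned with library size alone (-0.05, adjusted p = 0.506).

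Levels of different genes were compared per kilobase of exon, with lengths from GENCODE v29. At 0 h P4HB stood first, with 91.4 ± 2.09 CPM per kilobase (SD, n = 3), followed by ERP29 with 61.8 ± 2.64 and PDIA4 with 61.1 ± 0.865, whose libraries overlapped. PDIA3 and PDIA6 came next at 38.2 ± 1.05 and 35.8 ± 0.281, then TXNDC5 at 22.9 ± 1.80, ERP44 at 14.7 ± 0.0959, ERO1A at 13.1 ± 0.991 and ERO1B at 6.03 ± 0.334. PDIA5 was last with 2.26 ± 0.195. By 6 h PDIA4 had passed P4HB, at 310 ± 13.6 against 238 ± 11.7 CPM per kilobase, and ERP29 had moved behind PDIA6 and PDIA3, which overlapped each other at 131 ± 6.84 and 127 ± 6.54. At 3 h ERO1A and ERP44 overlapped, and at 6 h PDIA5 and ERO1B did. All other neighbours in the order did not overlap at their time. The PDIA3 values leave out the reads counted for its copy PDIA3P1, 38.4% to 41.0% of the sum of both. Part of those reads may come from PDIA3, so its place in the order may be too low. The order with them added was not tested.

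**Figure D4:**
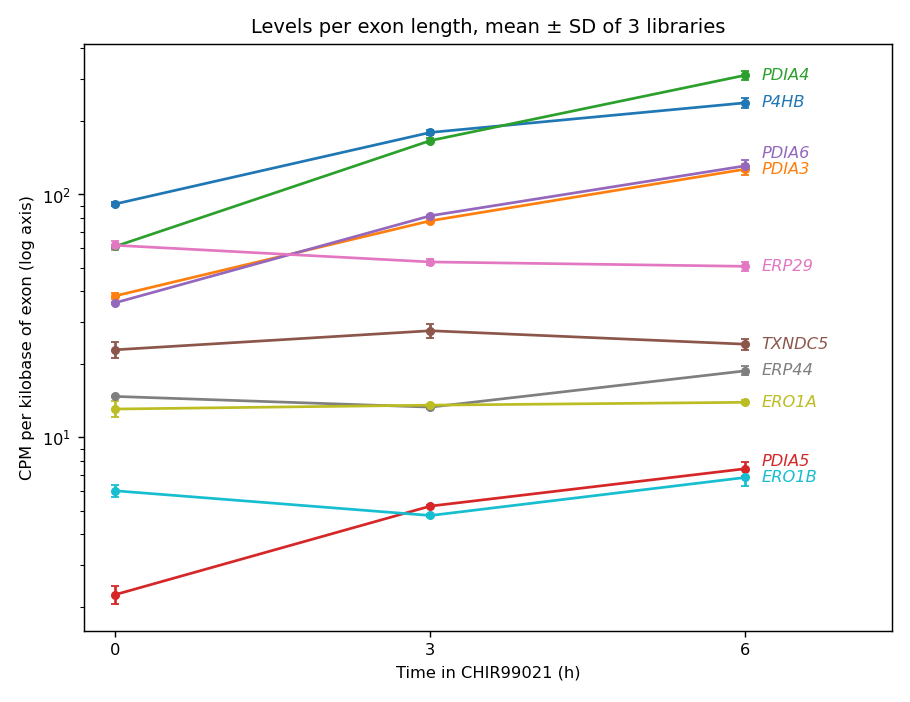
Mean level per kilobase of exon, with the SD of 3 libraries, against time in CHIR99021 on a log axis. PDIA3 is drawn without the reads counted for PDIA3P1. PDIA4 stands at 61.1, 167 and 310 CPM per kilobase at 0 h, 3 h and 6 h and crosses P4HB after 3 h, ERP29 drops behind PDIA6 and PDIA3, and the other 5 lines keep to a narrow range or, for PDIA5, climb from the bottom.

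The family as a whole took 0.166% ± 0.00233 of the reads in genes at 0 h, 0.256% ± 0.00293 at 3 h and 0.364% ± 0.00779 at 6 h (SD, n = 3). Within the set the isomerases came to outweigh the oxidases further at each time. Summed per kilobase, the 8 isomerases stood at 17.2 ± 1.5 times the 2 oxidases at 0 h, 33.0 ± 0.62 times at 3 h and 43.7 ± 3.45 times at 6 h. PDIA4 alone made up 13.4% ± 0.09 of the reads of the 10 genes at 0 h, 20.5% ± 0.156 at 3 h and 26.2% ± 0.0557 at 6 h, while ERP29 made up 12.7% ± 0.448, 6.11% ± 0.163 and 4.02% ± 0.0647. ERO1A stood at 2.17 ± 0.0646 times ERO1B per kilobase at 0 h, 2.84 ± 0.00874 times at 3 h and 2.04 ± 0.123 times at 6 h. These ratios and shares leave out the reads of PDIA3P1, are descriptions and were not tested.

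Genes whose products work with isomerases were mostly higher at 6 h. Of 11 partner genes, 9 were tested, of which 5 rose and 2 fell at 3 h (32.8% and 33.5% of all genes) and 7 rose and 1 fell at 6 h (35.7% and 35%), with medians of 0.37 and 0.92 on the log2 scale. CALR, which encodes calreticulin, had 429, 442 and 456.5 CPM at 0 h, 1305, 1206 and 1275 CPM at 3 h, and 2615, 2306 and 2479 CPM at 6 h, with no overlap. It rose 2.85-fold at 3 h and 5.58-fold at 6 h (edgeR adjusted p = 7.02e-11 and 9.63e-13). CANX, its membrane-bound relative calnexin, rose 1.81-fold and 2.52-fold, PPIB, an ER prolyl isomerase, 2.04-fold and 3.40-fold, and UGGT1, the sensor that sends misfolded glycoproteins back to them, 1.29-fold and 1.89-fold, the first lost with library size alone (adjusted p = 0.0529). CLGN, the testis relative of calnexin, fell 1.48-fold and 1.84-fold. P4HA1, the catalytic partner of P4HB in prolyl hydroxylation, fell 1.27-fold at 3 h (edgeR adjusted p = 0.000205) and was 1.14-fold higher at 6 h (edgeR adjusted p = 0.0149, lost without replicate 11 of 6 h, adjusted p = 0.0788, and turned to -0.05 with library size alone). P4HA2, a second such partner, rose 3.84-fold and 6.63-fold from a low 0.083 ± 0.026 CPM (SD, n = 3). It had only 3 to 6 reads per library at 0 h and 25 to 27 at 6 h, so these folds are imprecise.

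A list of 15 other genes, most of them of ER redox chemistry, was also read. It held GFER, a mitochondrial oxidase that rose 1.31-fold and 1.22-fold, and the calcium binders CASQ1 and CASQ2, which were not tested. Of the 15, 10 were tested, with 6 higher and 2 lower at 3 h (32.8% and 33.5% of all genes). At 6 h 8 were higher and 2 lower (35.7% and 35%), and the medians were 0.47 at 3 h and 0.56 at 6 h. The 8 became 5 with library size alone or against a minimum fold of 1.2. PRDX4, a peroxiredoxin of the ER that turns peroxide into disulfides and so feeds isomerases without an ERO1 oxidase, had 38.9, 39.7 and 42.8 CPM at 0 h, 79.2, 81.0 and 81.4 CPM at 3 h, and 115.5, 101 and 114 CPM at 6 h. The 3 times did not overlap, and PRDX4 rose 1.99-fold and 2.72-fold (edgeR adjusted p = 5.12e-09 and 1.10e-10). VKORC1L1, a vitamin K reductase that can also oxidise isomerases, rose 1.70-fold at 3 h and 1.69-fold at 6 h. SELENOS and SELENOK, selenoproteins of ER-associated degradation, rose 3.53-fold and 2.05-fold at 3 h and 3.31-fold and 2.37-fold at 6 h. QSOX2, a sulfhydryl oxidase that works on its own, fell 1.32-fold and 1.51-fold.

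Of 13 further isomerase-like genes, PDIA2, PDILT, AGR2 and AGR3 had too few reads, and the 9 tested gave 4 higher and 3 lower at 3 h (32.8% and 33.5% of all genes) and 4 higher and 2 lower at 6 h (35.7% and 35%), shares near those of all genes, with medians of 0.34 and 0.21. With library size alone 2 were higher and 4 lower at 6 h. The membrane-anchored TMX1 and TMX2 rose 1.76-fold and 1.73-fold at 3 h and 1.77-fold and 1.84-fold at 6 h. TMX3 rose 1.60-fold and 1.26-fold, the second lost with library size alone (adjusted p = 0.114), and TMX4 fell 1.19-fold and 1.63-fold. Between 3 h and 6 h none (0) of the 9 rose and 3 fell at an adjusted p under 0.05 in edgeR (21.5% and 21.9% of all genes). With 1 library left out, 0 to 2 rose and 2 to 4 fell, the 2 rises being found without replicate 10 of 6 h.

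Most UPR target genes were higher at both times. Of 15 targets, 13 rose and 2 fell at 3 h (32.8% and 33.5% of all genes) and 13 rose and 2 fell at 6 h (35.7% and 35%), with medians of 1.65 and 1.80. The 2 that fell were SEL1L and EDEM1, of ER-associated degradation. At 3 h their libraries overlapped those of 0 h, and the count of falls was 0 in the compared groups alone or against a minimum fold of 1.2, and 0 or 1 without any 1 library other than replicate 3 of 0 h. Between 3 h and 6 h 9 targets rose and 5 fell (21.5% and 21.9% of all genes), and 3 fell without replicate 6 of 3 h or replicate 11 of 6 h. HSPA5, the ER chaperone BiP, had 325, 327 and 323 CPM at 0 h, 2183, 2227 and 2207 CPM at 3 h, and 2425, 2214 and 2422 CPM at 6 h. Most of its 7.25-fold rise at 6 h was there at 3 h (6.79-fold). The step between 3 h and 6 h was 0.09 on the log2 scale and did not pass (edgeR adjusted p = 0.127), although it did without replicate 10 of 6 h (0.14, adjusted p = 0.0174). The 5 climbing isomerases rose by 0.40 to 0.89 in that interval, and the difference from HSPA5 was not tested. HSP90B1, HYOU1, MANF, CRELD2 and DNAJB11, all ER chaperones or folding helpers, rose further between 3 h and 6 h by 0.48 to 0.87. DNAJB9, a BiP cochaperone, fell by 0.74 in that interval after a 4.72-fold rise. The full ER stress element was in 4 of the 16 promoter windows of these targets (0.074% of all windows), and its second form was in 3 (0.0513%). Targets and elements were both chosen as known parts of the UPR, so these counts are a description and test nothing.

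Of 11 genes listed as UPR regulators, 4 rose and 4 fell at 3 h, close to the shares of all genes (32.8% and 33.5%). At 6 h 3 rose and 6 fell (35.7% and 35% of all genes), and the medians were 0.02 at 3 h and -0.13 at 6 h. Among the falls at both times was HIF1A, a hypoxia factor kept in this list, which fell 1.31-fold and 1.22-fold. With library size alone or against a minimum fold of 1.2, 2 rose at 3 h. ERN1, which encodes the ER stress sensor IRE1, fell 2.26-fold and 2.09-fold. Of the other sensors, EIF2AK3 rose by 0.34 and 0.44 on the log2 scale (edgeR adjusted p = 0.000277 and 2.8e-05). ATF6 did not pass at either time (0.02 and 0.16). DDIT3, the stress factor CHOP, fell by 0.68 and 1.04 on the log2 scale. TRIB3, a CHOP and ATF4 target, fell by 0.61 and 1.30. ATF4 itself was 1.41-fold higher at 3 h and 1.10-fold lower at 6 h (edgeR adjusted p = 3.68e-07 and 0.0208), the second lost without replicate 10 of 6 h (adjusted p = 0.0664). BHLHA15, a transcription factor of secretory cells, rose 18.9-fold and 18.3-fold from 0.792 ± 0.112 CPM (SD, n = 3).

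**Figure D5:**
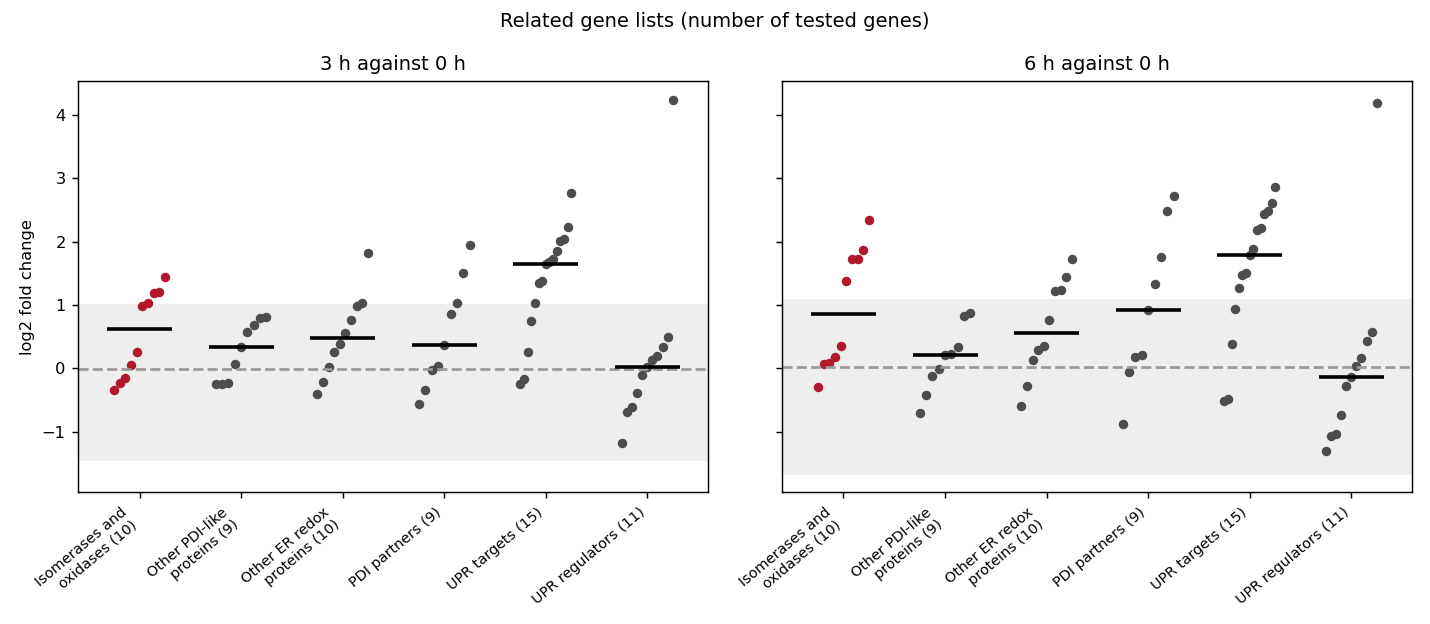
Log2 fold change at 3 h and at 6 h against 0 h of each tested gene in the set (red) and in 5 related lists (dark), with the median of each as a bar, over the 5th to 95th percentile of all genes (grey band) and their median (dashed). UPR targets have the highest medians, 1.65 and 1.80, and the set divides into a group above the band at 6 h and a group near 0.

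Genes with the most similar course were sought among 12172 genes with a symbol and a mean of at least 1 CPM, by the root mean square distance of log2 CPM, centred on the 0 h mean, over the 9 libraries. For PDIA4 the closest were FKBP11 at 0.0597, CALR at 0.0912, MYBBP1A at 0.0967 and TFRC at 0.0971. For P4HB they were NOC2L at 0.0316, AVEN at 0.0333, NANS at 0.045 and DDX27 at 0.0496. For ERO1A they were R3HDM1 at 0.0267, JKAMP at 0.0329, ZMYND8 at 0.0356 and AP3B1 at 0.0357. Within the set, PDIA5 and PDIA6 were nearest to each other (0.109), as were TXNDC5 and ERO1A (0.137) and ERP44 and ERO1B (0.17). These distances describe 9 libraries of 1 cell line that share their scaling.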

How the data were processed

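The authors deposited 1 table of raw read counts per Ensembl gene for the 9 libraries, with no normalization. Per the submitters' processing notes, GSNAP, HTSeq 0.6.0, limma 3.30.0 and build hg19 were used. The annotation release, strand setting and counting mode are not given in the sources used here. HTSeq summary entries were set aside, and 67.6% to 70.9% of reads lay in genes. In R 4.3.3, edgeR 4.0.16 kept genes by filterByExpr (minimum count 10, minimum total 15), scaled by TMM factors and fitted all 9 libraries together by robust quasi-likelihood, with 1 mean for each time (6 residual degrees of freedom). Tests were two-sided, with Benjamini-Hochberg adjustment over 15847 genes at 0.05. The SE is the log2 fold change divided by the root of F. Alternatives used DESeq2 1.42.0, limma-voom (limma 3.58.1), other scalings, filters and a minimum fold of 1.2, the compared groups alone, or each library left out. The procedure was tested on simulated data. Symbols were matched by identifier, and gene models, on GRCh38, gave exon lengths, exon overlaps and strands.

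The genes, the related lists and the motifs were chosen with earlier results of these data known. Named genes were all 10 members, HSPA5, ATF4, up to 4 genes per list and comparison with the smallest p, and the 4 nearest genes of PDIA4, P4HB and ERO1A. The text gives a part of these. It also gives CLGN, GFER, SEL1L, EDEM1, EIF2AK3, ATF6 and HIF1A from the lists, outside that rule. Their alternatives were not recomputed gene by gene. Figures were drawn with matplotlib 3.10.9.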

Additional observations from a re-analysis of the deposited data

How the results depend on the processing

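The rises of P4HB, PDIA3, PDIA4, PDIA5 and PDIA6 kept their direction and an adjusted p under 0.05 in all 3 comparisons under all 18 alternatives. For PDIA4 at 6 h against 0 h the log2 fold change ran from 2.10 to 2.38. Over all 10 genes, 523 of 546 recomputed values kept their call, 19 lost it, and 4 turned direction with the main or the recomputed value passing. A turn where neither value passed was counted as kept. For ERO1A at 3 h, the log2 fold change ran down to -0.01 with 1 library left out. With library size alone the values that turned were ERO1A (-0.15 at 3 h and -0.14 at 6 h), TXNDC5 at 6 h (-0.16, adjusted p = 0.0381) and ERO1B at 6 h (-0.0519), and 3 members were lower at 6 h instead of 1. In the same setting PPP1R15A (-0.0072), R3HDM1 (-0.14), ZMYND8 (-0.17) and AP3B1 (-0.16) turned at 3 h, as did TXNDC11 (-0.0233), P4HA1 (-0.0527), R3HDM1 (-0.13), JKAMP (-0.15) and AP3B1 (-0.13) at 6 h, and 3656 of all genes were higher at 6 h instead of 5660. AP3B1 also turned at 3 h with upper-quartile factors (-0.11). The cause was not tested. Against a minimum fold of 1.2, by construction a stricter test, no member was lower in any comparison (0), and of all genes 3453 were higher at 3 h, and 1136 higher and 1368 lower at 6 h against 3 h, instead of 5201, 3402 and 3469. Leaving out 1 library at a time gave 6 to 6 members higher and 3 to 3 lower at 3 h, 6 to 7 higher and 1 to 1 lower at 6 h, and 7 to 7 higher and 0 to 1 lower at 6 h against 3 h, the last being TXNDC5. Members differing among the 3 times numbered 8 to 9 in these fits. Adding the counts of ERP29P1 to ERP29, chosen after seeing the data, gave -0.23 at 3 h and -0.28 at 6 h. The labels do not say whether cultures were matched across times, so no paired analysis was made. Depth was not limiting for the members, the lowest of which had 487 reads.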
